A study of Mus musculus with 18 samples.

Results

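Plvap, Ppap2a and Cd24a were followed as 3 genes of 14068 listed in at least 1 of 3 deposited tables of mouse endothelial RNA, from choroid, retina and brain. They were chosen by gene symbol as markers of fenestrated capillaries, without reference to measured values, although earlier results of these data were known. All 3 were listed in all 3 tables, which share 10505 genes. Ppap2a is the tables' name for the gene now called Plpp1. All animals carried a Tie2-cre transgene and the NuTRAP allele (Tie2-cre+; NuTRAP+), the tables' column names mark every library WT, and neither Cre-negative libraries nor mock purifications were analysed here. Translating ribosome affinity purification (TRAP) was used: Cre turns on a GFP-tagged ribosomal protein in the cells that express it, and an anti-GFP antibody pulls the tagged ribosomes and their RNA out of a tissue lysate. The pulled-down RNA is the positive fraction, and lysate set aside before the pull-down is the input. The 6 groups, with 3 libraries each (replicates 421, 953 and 960), were an input and a positive group in each tissue. Choroid was scraped together with the retinal pigment epithelium (RPE) from the 2 eyes of an animal, the 2 retinas were also pooled, and 0.5 of a brain was used per sample. The Tie2 promoter drives Cre in endothelium and in blood-forming cells as well, which limits the positive fraction as a sample of endothelium. The labels used here give no age or sex.

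Fenestrae are small pores through the wall of capillaries that pass fluid and solutes quickly. Plvap encodes the plasmalemma vesicle-associated protein, the structural protein of the thin diaphragms that span fenestrae and the necks of caveolae. The choriocapillaris, the capillary bed of the choroid behind the RPE, is fenestrated. Capillaries of the neural retina and of most of the brain are not: they form the blood-retina and blood-brain barriers, and in the brain fenestrated vessels lie in the choroid plexus and the circumventricular organs. Mature barrier endothelium keeps Plvap low, and loss of endothelial Wnt/beta-catenin signalling raises it. Ppap2a encodes a membrane phosphatase that removes the phosphate of lysophosphatidic acid and related signalling lipids outside the cell. Cd24a encodes a small, heavily glycosylated surface protein held by a lipid anchor, known from B cells, granulocytes, red cell precursors, immature neurons and epithelia. In bulk RNA, fewer cells of a type and less RNA per cell cannot be told apart.

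In mm10, Plvap (ENSMUSG00000034845) lies on chromosome 8, from 71497753 to 71511769 on the minus strand, with 6 exons that span 1.99 kb in all. Ppap2a (ENSMUSG00000021759) lies on chromosome 13, from 112800792 to 112867680 on the plus strand, with 1.75 kb of exons. Cd24a (ENSMUSG00000047139) lies on chromosome 10, from 43579169 to 43584265 on the plus strand, with 2.58 kb of exons. In the tables' own coordinates neither Plvap nor Ppap2a overlaps its nearest opposite-strand neighbour, Gtpbp3 and Skiv2l2. In GENCODE M21 the last exon of Ppap2a is longer and shares 452 exon bases with Skiv2l2 (now Mtrex), while Plvap and Gtpbp3 share 0. The kit keeps strand, but the labels do not say whether the counting used it.

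Total expected counts over listed genes were lowest in the choroid pull-downs (2649095 to 4587921) and ranged from 8807306 to 14484068 in choroid inputs. Retina inputs had 15243098 to 21521130 and retina pull-downs 6260958 to 11071373, and brain libraries had 9596740 to 32064355 over both fractions. The label of endothelium was checked with 12 pan-endothelial genes, all 12 of which were higher in the positive fraction of every tissue (median log2 fold change 3.43 in choroid, 6.25 in retina and 5.47 in brain). Choroid inputs held 14750 to 23560 CPM of summed RPE markers and retina inputs 699.8 to 737.2 CPM. Input 960 of brain, the shallowest brain library, stood apart from the other 2 brain inputs in summed markers of choroid plexus epithelium (1363 CPM against 637.7 and 627.9), erythroid cells (1034 against 176.1 and 342.7) and granulocytes (47.8 against 11.4 and 9.20). Results on the 3 genes whose call or sign changed without brain 960 are given with and without it. Positive 421 of retina stood apart in markers of mural cells (423.4 CPM against 44.2 and 24.8, 3 of 9 listed) and fibroblasts (240.6 against 121 and 58.3, 2 of 8 listed). Choroid replicate 960 had the highest rod photoreceptor markers (8 of 8 listed), at 4106 CPM in input against 313.6 and 1777, and at 1747 CPM in the pull-down against 111 and 528.2.

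Plvap was abundant in the choroid pull-down and scarce in the pull-downs of retina and brain. In counts-per-million units (CPM, with library sizes scaled by TMM within each tissue), the choroid inputs held 340.6, 210.6 and 278.1 in replicates 421, 953 and 960 (276 ± 65.0, SD, n = 3), and the choroid positive libraries held 4457, 3014 and 3808 (3760 ± 723). Every choroid positive library was far above every choroid input, with no overlap. Plvap was 13.6-fold higher in the positive fraction (log2 fold change 3.77 ± 0.28, SE, edgeR adjusted p = 8.02e-05), and 99.72% of the genes tested in choroid had a lower value. The 3 ratios of positive to input within a replicate number were close to each other, at 3.71, 3.84 and 3.78 on the log2 scale.

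In retina, Plvap had 18.2, 15.2 and 12.9 CPM in the inputs (15.4 ± 2.68) and 16.6, 23.6 and 17.6 CPM in the positive libraries (19.3 ± 3.80). The groups overlapped, since positive 421 lay below input 421. The log2 fold change was 0.32 ± 0.20 (95% confidence interval -0.13 to 0.76, edgeR adjusted p = 0.248) and did not pass the test. In brain, the inputs had 29.2, 27.9 and 34.5 CPM (30.5 ± 3.49) and the positive libraries 46.8, 39.5 and 25.3 CPM (37.2 ± 10.9). Positive 421 and 953 lay above all 3 inputs and positive 960 below them. Over all 6 brain libraries the log2 fold change was 0.29 ± 0.24 (-0.28 to 0.86, edgeR adjusted p = 0.377), not past the test. Without both fractions of 960 it was 0.59 (adjusted p = 0.00165), a call.

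Ppap2a also rose in the choroid pull-down. The choroid inputs held 60.0, 48.0 and 51.7 CPM (53.2 ± 6.12, SD, n = 3) and the positive libraries 647.6, 488.1 and 478.5 CPM (538 ± 95). The groups did not overlap, and the log2 fold change was 3.34 ± 0.21 (edgeR adjusted p = 4.66e-05). The phosphatase gene differed from Plvap in that its smaller changes in the barrier tissues passed the test. Retina inputs held 13.7, 13.6 and 12.6 CPM (13.3 ± 0.597) and retina positive libraries 22.7, 18.1 and 20.5 CPM (20.4 ± 2.30), again without overlap. The log2 fold change there was 0.62 ± 0.15 (edgeR adjusted p = 0.015). This retina call was lost when any 1 retina input was left out (0.64, 0.64 and 0.58 without 421, 953 and 960, adjusted p = 0.0596, 0.0663 and 0.0779).

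Brain gave Ppap2a its second largest enrichment, with 20.8, 20.1 and 20.2 CPM in the inputs (20.3 ± 0.371) and 42.3, 42.9 and 38.7 CPM in the positive libraries (41.3 ± 2.26). Each positive library stood well above all 3 inputs. The log2 fold change was 1.02 ± 0.13 (edgeR adjusted p = 0.00119), and the call held when each library was left out in turn. The partner Skiv2l2, an RNA helicase gene, moved in its own directions (log2 fold change 0.76 in choroid, adjusted p = 0.0106, and -0.45 in retina, adjusted p = 0.0126, with -0.16 in brain, adjusted p = 0.515). In retina Skiv2l2 was the more abundant of the pair, with an input level of 99.3 ± 2.87 CPM and a pull-down level of 72.5 ± 6.35 CPM, and its part in the Ppap2a counts was not tested.

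Cd24a followed the same order in choroid. The inputs held 76.4, 63.3 and 95.7 CPM (78.4 ± 16.3, SD, n = 3) and the positive libraries 830.7, 747.1 and 560.3 CPM (713 ± 138), with no overlap. Cd24a was higher in the pull-down with a log2 fold change of 3.18 ± 0.24 (edgeR adjusted p = 8.74e-05). The ratio within replicate 960 was lower (2.55) than those of 421 and 953 (3.44 and 3.56). With Plvap and Ppap2a, all 3 genes were called higher in choroid, where 21.1% of all genes tested were called higher and 20.9% lower.

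The gene was near the lower end of what the retina libraries could measure. Retina inputs held 3.41, 4.58 and 5.25 CPM (4.41 ± 0.930), from 52, 98 and 98 expected counts, and positive libraries 10.2, 6.82 and 7.19 CPM (8.08 ± 1.87), from 69, 43 and 80. All positive libraries lay above all inputs, and the highest was 421, the retina pull-down with the most mural and fibroblast marker RNA, whose part in it was not tested. The log2 fold change was 0.86 ± 0.25 (edgeR adjusted p = 0.031), but the call was lost when any input or positive 421 or 953 was left out (0.66 to 1 over the 6 libraries left out in turn, adjusted p from 0.0232 to 0.114). Without positive 421 it was 0.66 (adjusted p = 0.0656). In retina 2 of the 3 genes, Ppap2a and Cd24a, were called higher, against 18% of all genes tested (13.7% were called lower).

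Brain Cd24a had 13.5, 13.6 and 19.3 CPM in the inputs (15.5 ± 3.32) and 24.7, 20.2 and 16.8 CPM in the positive libraries (20.6 ± 3.95). The groups overlapped at replicate 960, whose positive library was below its own input and whose input was the highest of the 3. The log2 fold change was 0.42 ± 0.22 (-0.11 to 0.95, edgeR adjusted p = 0.175), not past the test. It was 0.61 (adjusted p = 0.0143) without input 960 and 0.73 (adjusted p = 0.00184) without both fractions of 960, and both are calls. Over all brain libraries 1 of the 3 genes, Ppap2a, was called higher, against 21.2% of all genes tested (18.3% were called lower).

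**Figure D1:**
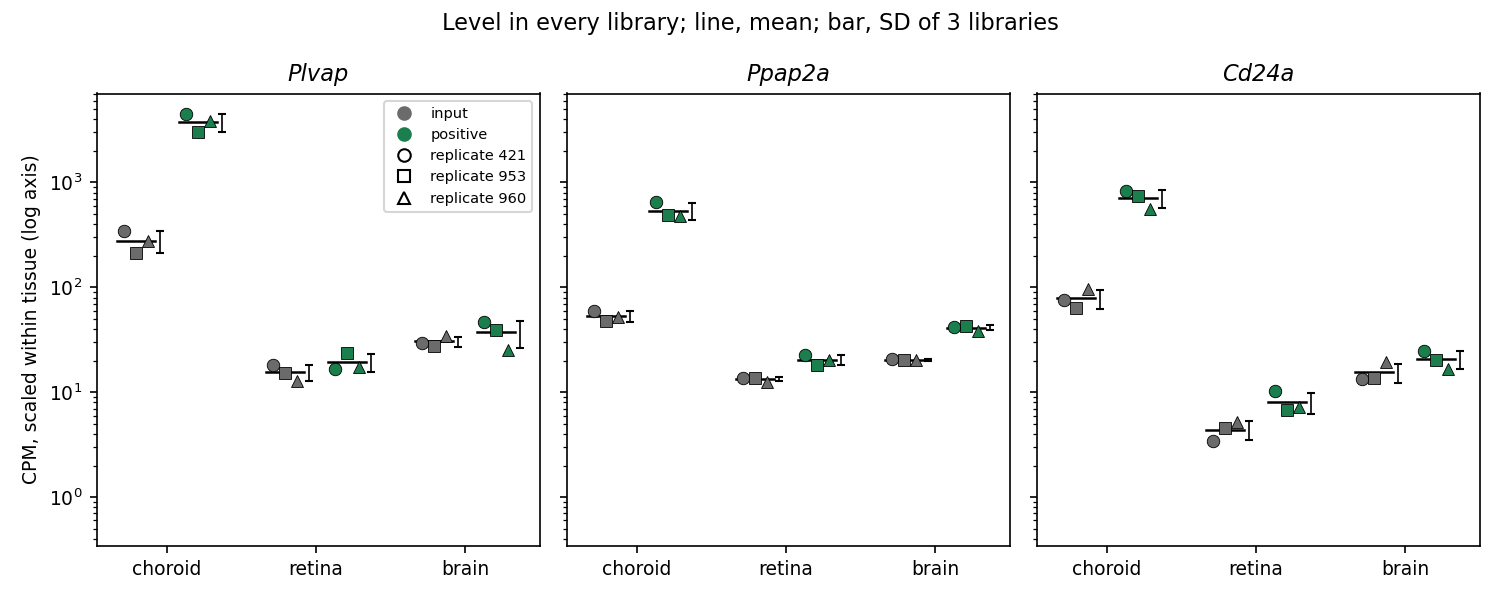
CPM (scaled within tissue, log axis) of Plvap, Ppap2a and Cd24a in each of the 18 libraries, by tissue, with inputs in grey and positive fractions in green, a marker shape per replicate number, a line at the mean and a bar for the SD of 3 libraries. In choroid the positive libraries of each gene sit about an axis decade above the inputs (Plvap 276 and 3760 CPM on average), while in retina and brain the fractions lie close together.

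The difference in enrichment between tissues was tested in a fit of all 18 libraries, and of the 3 genes it was largest for Plvap. The enrichment of Plvap in choroid exceeded that in retina by 3.47 ± 0.35 (log2, edgeR adjusted p = 3.8e-06) and that in brain by 3.65 ± 0.35 (adjusted p = 1.88e-06). Ppap2a exceeded by 2.74 ± 0.20 (adjusted p = 2.35e-07) and 2.49 ± 0.20 (adjusted p = 3.49e-07), and Cd24a by 2.35 ± 0.33 (adjusted p = 8.92e-05) and 2.93 ± 0.32 (adjusted p = 5.83e-06). All 3 were thus called higher for choroid in both comparisons, against 10.9% of genes tested for choroid over retina (18% lower) and 12.2% for choroid over brain (12.3% lower). The same choroid libraries stand in both comparisons, so they are not independent of each other. Each of these calls held under every alternative run, from leaving out single libraries to DESeq2.

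Between retina and brain no difference in enrichment was called for any of the 3 genes. The difference of retina over brain was 0.17 ± 0.35 for Plvap (95% confidence interval -0.56 to 0.91, edgeR adjusted p = 0.774), -0.26 ± 0.20 for Ppap2a (-0.68 to 0.17, adjusted p = 0.428) and 0.58 ± 0.33 for Cd24a (-0.13 to 1.28, adjusted p = 0.269), where the median of all genes was 0.20 and 13.3% of genes were called in either direction. That median went to -0.01 when any choroid library but input 953 was left out and to -0.08 without brain input 960. These intervals leave room for differences of up to about the sizes at their ends. The sign of the Plvap difference turned when single libraries were left out (-0.15 without brain input 960). Ppap2a became called lower in retina (-0.52, adjusted p = 0.0251) without both fractions of choroid 421 and of brain 960. The Cd24a difference ran from 0.17 to 0.73 with single libraries left out. It fell to 0.04 without both fractions of choroid 421 and of brain 960, and was called in no alternative.

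**Figure D2:**
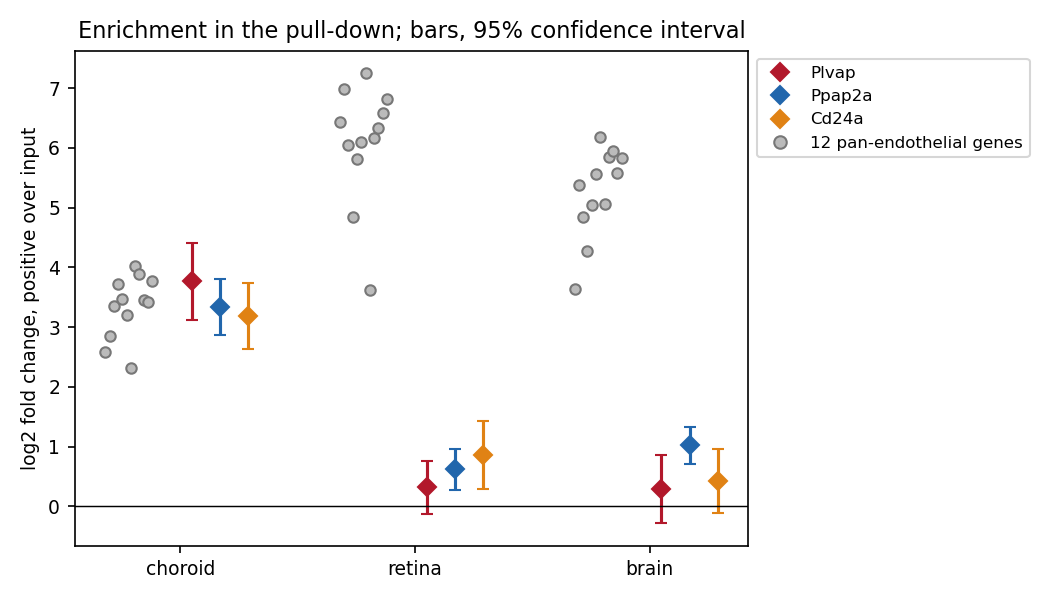
Log2 fold change of positive over input in each tissue for the 3 genes (coloured diamonds, bars for the 95% confidence interval) and for 12 pan-endothelial genes (grey points). In choroid the 3 genes (3.77, 3.34 and 3.18) fall within the range of the pan-endothelial genes, and in retina and brain they lie below all 12, near 0 to 1.02.

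The positive fractions were also compared directly, in CPM scaled over the 9 positive libraries. Choroid held 4756, 3174 and 4051 CPM of Plvap, retina 17.5, 25.2 and 18.6 CPM, and brain 47.0, 39.5 and 25.6 CPM. Choroid was higher than retina by 7.61 ± 0.34 on the log2 scale (195.7-fold, edgeR adjusted p = 7.48e-09) and higher than brain by 6.74 ± 0.33 (106.8-fold, adjusted p = 1.45e-08). Of 10505 genes, Plvap ranked 3 from the top in the first comparison and 5 in the second.

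Cd24a was next, with 886.5, 786.6 and 596.1 CPM in choroid, 10.8, 7.28 and 7.59 CPM in retina and 24.8, 20.2 and 17.0 CPM in brain. It was 88.7-fold higher in choroid than in retina (log2 6.47 ± 0.27, edgeR adjusted p = 7.48e-09) and 36.6-fold higher than in brain (5.19 ± 0.25, adjusted p = 1.4e-08), ranking 7 and 14. Ppap2a had 691.1, 513.9 and 509.1 CPM in choroid, 23.9, 19.3 and 21.6 CPM in retina and 42.5, 42.9 and 39.1 CPM in brain. Its folds were smaller, at 26.4 over retina (4.72 ± 0.20, adjusted p = 7.48e-09) and 13.8 over brain (3.78 ± 0.19, adjusted p = 1.58e-08), with ranks of 35 and 56. Higher calls in choroid covered all 3 genes in both comparisons, against 32.9% of all genes over retina (39.1% lower) and 23.1% over brain (23.8% lower).

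The retina pull-down held less of each gene than the brain pull-down. The log2 difference of retina from brain was -0.87 ± 0.27 for Plvap (edgeR adjusted p = 0.0122), -0.94 ± 0.17 for Ppap2a (adjusted p = 0.000507) and -1.28 ± 0.23 for Cd24a (adjusted p = 0.000401). All 3 were called lower, as were 31% of all genes. For Plvap the brain value rested on positive 421, the highest of the 3, and without it the difference was -0.67 (adjusted p = 0.0742). Retina and brain libraries of Plvap came close, at 25.2 CPM in retina 953 and 25.6 CPM in brain 960, but did not overlap.

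The same order of tissues was already present in the inputs, before any pull-down. In CPM scaled over the 9 inputs, choroid held 399.6, 245.0 and 324.1 CPM of Plvap, retina 19.4, 16.1 and 13.7 CPM, and brain 34.3, 32.6 and 40.0 CPM. Choroid exceeded retina by 4.30 ± 0.23 for Plvap (log2, edgeR adjusted p = 8.9e-07), 2.14 ± 0.13 for Ppap2a (adjusted p = 1.72e-06) and 4.28 ± 0.25 for Cd24a (adjusted p = 1.31e-06). It exceeded brain by 3.18 ± 0.22, 1.39 ± 0.13 and 2.35 ± 0.23 (adjusted p = 3.74e-06, 2.35e-05 and 2.97e-05). All 3 were called higher in choroid input, against 31.9% of genes over retina and 26.7% over brain. Retina inputs were lower than brain inputs by 1.12 ± 0.21 for Plvap (adjusted p = 0.00167), 0.76 ± 0.13 for Ppap2a (adjusted p = 0.00112) and 1.93 ± 0.24 for Cd24a (adjusted p = 0.000157), with 34.7% of all genes called lower.

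The order of levels was therefore choroid, brain, retina in both fractions for each of the 3 genes. The 12 pan-endothelial genes shared much of this order. All 12 were higher in choroid input than in retina and in brain input (median log2 difference 5.16 and 2.52). In retina input 11 were lower than in brain input (median -2.3). In the pull-downs 11 were higher in choroid than in retina (median 1.85) and 10 lower in retina than in brain (median -1.41). Between choroid and brain pull-downs 5 were higher and 1 lower in choroid (median 0.37). Of all genes, 31.9% and 26.7% were higher in choroid input than in retina and brain input, and 34.7% lower in retina than in brain input. In the pull-downs 32.9% were higher in choroid than in retina and 31% lower in retina than in brain. Against brain 23.1% were higher and 23.8% lower in the choroid pull-down. Within brain and within retina, the positive and input levels of Plvap are neighbours whose difference did not pass the test over all libraries, and the same holds for Cd24a in brain. Levels of different genes were compared per kilobase of exon, on a scale common to the 18 libraries. In the choroid positive libraries Plvap had 2553, 1717 and 2201 CPM per kb, Ppap2a 421.1, 315.6 and 314.1, and Cd24a 366.4, 327.7 and 249.5. Plvap thus stood several times above the other 2 genes in each choroid pull-down, while in each brain pull-down Ppap2a (22.7 to 24.5) was above Plvap (13.1 to 23.9), and Cd24a was lowest (6.70 to 9.71).

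To set the 3 genes beside endothelial RNA of the same library, each was divided by the median of the 12 pan-endothelial genes per kb. In choroid the ratio for Plvap was high in both fractions, at 11.4, 12.9 and 14.95 in the inputs and 19.1, 15.2 and 24.8 in the positive libraries. In retina it was 30.4, 21.1 and 19.5 in the inputs and 0.178, 0.367 and 0.371 in the positive libraries. In brain it was 7.6, 8.14 and 11.1 against 0.314, 0.239 and 0.229. Plvap was above all 12 pan-endothelial genes in each of the 9 inputs and each of the 3 choroid pull-downs, above 0 to 3 of them in the retina pull-downs and above none (0) in the brain pull-downs.

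In choroid the ratios of Ppap2a and Cd24a were lower than those of Plvap in every library. In brain pull-downs Ppap2a was above Plvap in each of the 3. For Ppap2a the choroid ratios were 2.29 to 3.35 in input and 2.79 to 3.54 in positive libraries, while retina had 21.4 to 25.8 and 0.276 to 0.49, and brain 6.15 to 7.37 and 0.294 to 0.398. For Cd24a the choroid inputs had 1.97 to 3.96 and the choroid pull-downs 2.74 to 2.90. Retina inputs had 4.38 to 6.10 against 0.0816 to 0.117 after the pull-down, and brain inputs 2.70 to 4.78 against 0.0941 to 0.128. In the barrier tissues every pull-down thus had a lower ratio to pan-endothelial RNA than every input, for each of the 3 genes. This restates the enrichments and is not a separate result. The 12 genes of the divisor rose there by medians of 6.25 in retina and 5.47 in brain, and the 3 genes by 0.29 to 1.02. Any gene enriched less than the divisor gives a lower ratio after the pull-down. Which cells hold the input RNA was not tested.

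**Figure D3:**
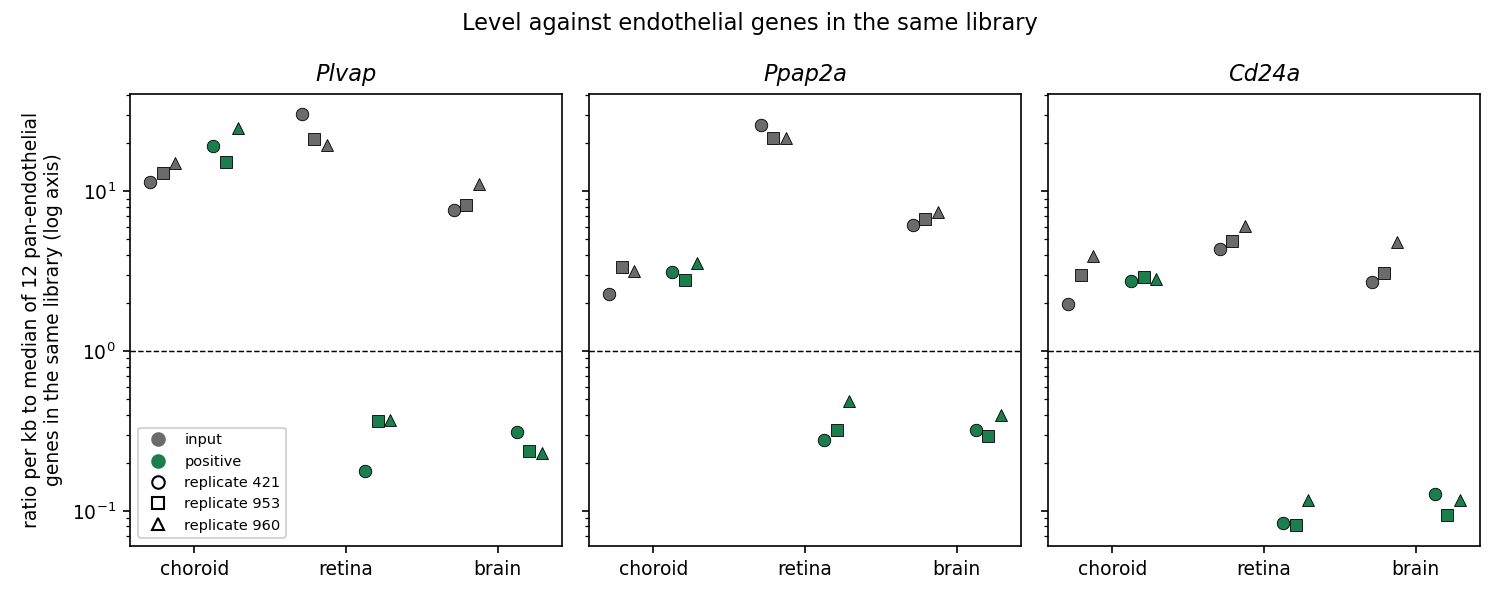
Level of each gene per kb divided by the median of 12 pan-endothelial genes per kb in the same library (log axis), for inputs (grey) and positive libraries (green) of each tissue, with a marker shape per replicate number and a dashed line at 1. Choroid points lie above 1 in both fractions (Plvap 11.4 to 24.8), whereas retina and brain points lie above 1 in input and below 0.5 in the positive fraction.

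The list of fenestrated endothelium fixed beside the 3 genes held 13 others, 10 of them measured in choroid and brain and 8 in retina. In choroid all 10 were called higher (median 3.44, where the median of all genes was -0.03). They included the growth factor binding protein Igfbp3 (3.75 ± 0.22), the capillary lipase anchor Gpihbp1 (3.96 ± 0.25) and the membrane-trafficking gene Ehd4 (3.20 ± 0.21), each by edgeR. In retina 6 were called higher and 1 lower (median 2.71, all genes -0.01) and in brain 9 and 1 (median 3.50, all genes -0.07). Of all genes, 21.1%, 18% and 21.2% were called higher in choroid, retina and brain. Most of the list thus stayed enriched in the barrier tissues, where the 3 genes had 0.29 to 1.02. Emcn, a sialomucin gene of the list, is also 1 of the 12 pan-endothelial genes.

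Ppap2b (now Plpp3), the sister phosphatase, was the 1 gene of this list with calls in both directions. It rose in choroid (log2 fold change 1.51 ± 0.32, edgeR adjusted p = 0.00614) and fell in retina (-0.87 ± 0.14, adjusted p = 0.00238) and in brain (-1.27 ± 0.21, adjusted p = 0.00377). The differences were 2.41 ± 0.37 for choroid over retina and 2.94 ± 0.37 for choroid over brain (adjusted p = 0.000195 and 2.66e-05). Ehd4 was more enriched in choroid than in retina (2.51 ± 0.21, adjusted p = 6.03e-07). The VEGF receptor Kdr did not pass the test in retina (0.19, adjusted p = 0.555), and its choroid enrichment exceeded that in retina by 3.52 ± 0.43 (adjusted p = 2.7e-05). Vwa1, an extracellular matrix gene, ran the other way, with 4.67 ± 0.15 in retina and 4.22 ± 0.23 in brain.

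In the difference of enrichment, 3 of the 8 other genes measured in all tissues were higher for choroid over retina and 3 lower (median 0.30, all genes -0.07), and 3 and 4 for choroid over brain (median -0.29, all genes 0.08). Of all genes, 10.9% were higher and 18% lower over retina, and 12.2% and 12.3% over brain. In the positive fractions themselves 6 of 8 were higher and 1 lower in choroid than in retina (median 3.85, all genes -0.11), and likewise 6 and 1 against brain (median 2.49, all genes 0.03). There 32.9% and 23.1% of all genes were higher. Igfbp3 was the closest of these to Plvap in the pull-downs, at 6.10 over retina and 5.58 over brain on the log2 scale.

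**Figure D4:**
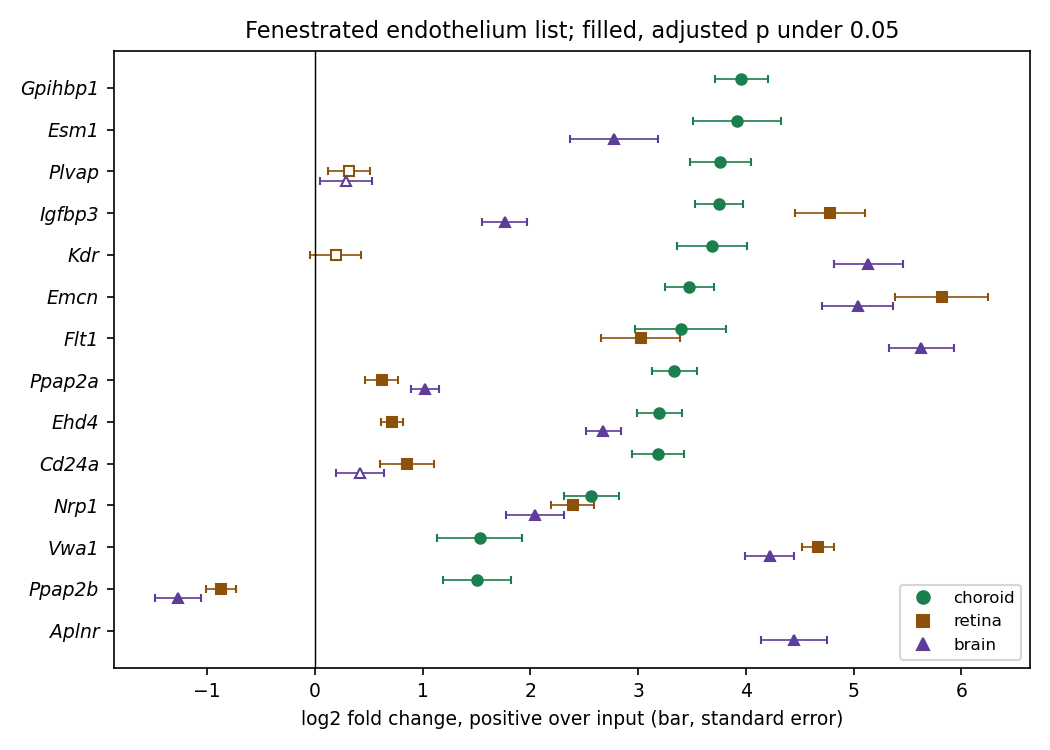
Log2 fold change of positive over input (points, bars for the standard error) for each listed gene of the fenestrated endothelium list in choroid, retina and brain, with filled symbols for an adjusted p under 0.05. All 13 genes measured in choroid are filled and above 0, and Plvap, Cd24a and Ppap2a are among the genes whose retina and brain points lie nearest 0, while Ppap2b is below 0 in both.

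Genes that build caveolae, the flask-shaped membrane pits whose necks can carry Plvap diaphragms, did not share its tissue pattern of enrichment. In choroid 6 of 8 rose and 1 fell (median 1.83), in retina 6 rose (median 1.93) and in brain 7 rose (median 3.45). Of all genes, 21.1%, 18% and 21.2% were called higher. In pull-down level 6 caveolae genes were higher and 1 lower in choroid than in retina (median 1.49, against 7.61 for Plvap). Of all genes, 32.9% were higher and 39.1% lower there. Against brain 2 were higher in choroid and none (0) lower (median 0.41, against 6.74 for Plvap). This count of 2 of 8 lay near the share of all genes, of which 23.1% were higher and 23.8% lower. In retina 5 were lower and 1 higher than in brain (median -0.99), and 31% of all genes were lower. The coat gene Cav1 rose in choroid (2.34 ± 0.24, edgeR adjusted p = 0.000233) and in brain (4.74 ± 0.24, adjusted p = 4.12e-05). The enrichment of Cav1 was higher in choroid than in retina by 1.54 ± 0.28 (adjusted p = 0.00074) and lower than in brain by 2.22 ± 0.28 (adjusted p = 3.29e-05), written as choroid minus brain of -2.22. The coat stabiliser Ptrf (now Cavin1) was less enriched in choroid than in either (-2.54 ± 0.37 and -2.68 ± 0.37, adjusted p = 0.000117 and 6.13e-05).

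VEGF signalling keeps fenestrated capillaries in place. In choroid 6 of 10 genes of this pathway rose and 3 fell (median 0.94), against 21.1% and 20.9% of all genes. The receptor gene Kdr (3.69 ± 0.33, edgeR adjusted p = 0.000147) and the co-receptor gene Nrp1 (2.56 ± 0.25, adjusted p = 0.000203) rose, while the ligand genes Vegfa (-2.07 ± 0.20, adjusted p = 0.000178) and Vegfb (-1.39 ± 0.16, adjusted p = 0.000346) fell in the pull-down. The ligand gene Vegfc had 0.90 (adjusted p = 0.0485), a call in the other direction. In retina neither Vegfa (0.37, adjusted p = 0.0952) nor Vegfb (0.12, adjusted p = 0.486) passed the test. In retina 5 of 8 rose (median 1.65), and in brain 6 of 9 rose and 1 fell (median 2.05). Of all genes, 18% in retina and 21.2% in brain were called higher. The RPE markers, from the cells known to secrete Vegfa toward the choroid, were also lower in the choroid pull-down. They had 3754 to 8178 CPM summed over 8 of 9 listed markers against 14750 to 23560 CPM in choroid input. Which cells hold the Vegfa RNA was not tested.

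Genes of lipid phosphate phosphatases other than Ppap2a showed no common direction. In choroid 1 of 5 rose, Ppap2b, and 1 fell (median -0.09). In retina 1 of 5 rose and 2 fell (median -0.35), and in brain 1 of 6 rose and 2 fell (median -0.25). The choroid counts were near the shares of all genes, of which 21.1% were called higher and 20.9% lower. In retina 18% of all genes were called higher and 13.7% lower, and in brain 21.2% and 18.3%. In the positive libraries of choroid Ppap2b was the other abundant phosphatase gene, at 515.0 CPM against 181.6 CPM in input. In the lysophospholipid pathway on which these enzymes act, 3 of 12 genes rose and 4 fell in choroid (median -0.12). The shares of all genes in choroid were again 21.1% and 20.9%. The sphingosine-1-phosphate receptor gene S1pr1 rose (3.11 ± 0.31, edgeR adjusted p = 0.000219), and Enpp2, which encodes the enzyme autotaxin that makes lysophosphatidic acid, fell (-2.01 ± 0.27, adjusted p = 0.000763). S1pr1 rose in retina (3.39 ± 0.18, adjusted p = 2.6e-06) and brain (2.41 ± 0.18, adjusted p = 9.75e-05) too, and its differences of choroid from retina (-0.26, adjusted p = 0.606) and from brain (0.87, adjusted p = 0.0712) did not pass the test.

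Of 8 genes for known binding or signalling partners of CD24, 3 were listed in choroid and brain and 2 in retina. The kinase gene Lyn, of blood cells and endothelium, rose in choroid (2.22 ± 0.25, edgeR adjusted p = 0.000363), retina (4.47 ± 0.25, adjusted p = 3.81e-06) and brain (3.15 ± 0.21, adjusted p = 7.05e-05). The neural adhesion gene L1cam had -0.86 in choroid (adjusted p = 0.0694) and -0.24 in retina (adjusted p = 0.245), not past the test, and fell in brain (-0.84 ± 0.27, adjusted p = 0.0482).

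The pan-endothelial genes were less enriched in choroid than in the barrier tissues, unlike the 3 genes. For choroid minus retina 11 of 12 were lower (median -2.87). For choroid minus brain 9 of 12 were lower (median -1.84), and none (0) was higher in either. Of all genes, 18% were lower for choroid minus retina and 12.3% for choroid minus brain. Enrichment is relative to input, and all 12 had more input RNA in choroid (median log2 difference 5.16 over retina, 2.52 over brain). Their pull-down levels were not generally lower in choroid. Against retina 11 of 12 were higher (median 1.85), and against brain 5 were higher and 1 lower (median 0.37). In the pull-downs 32.9% of all genes were higher and 39.1% lower in choroid than in retina, and 23.1% and 23.8% against brain. Barrier genes had enrichment differences of the same sign as the pan-endothelial genes, and the Wnt list had medians of -2.61 and -2.62. These too are relative to input. Of 15 Wnt-list genes measured in all tissues, 12 were higher in choroid input than in retina input (median 1.96). Against brain input 8 were higher and 1 lower (median 0.97). In the pull-downs 5 were higher and 7 lower in choroid than in retina (median -0.61), and 1 and 10 against brain (median -0.96). Of all genes, 31.9% and 26.7% were higher in choroid input. Of the Wnt/beta-catenin and barrier transcription factor list, 8 of 16 rose and 2 fell in choroid (median 0.73), 15 of 16 rose in retina (median 2.39) and 17 of 17 in brain (median 3.70). All genes called higher made up 21.1%, 18% and 21.2%. The transcription factor genes Foxf2 and Sox17 were less enriched in choroid than in retina (-4.46 ± 0.38 and -3.77 ± 0.53, edgeR adjusted p = 6.25e-07 and 8.92e-05). Fzd4, the receptor for norrin, and Apcdd1, a Wnt target and inhibitor, were less enriched in choroid than in brain (-4.20 ± 0.58 and -5.51 ± 0.70, adjusted p = 6.45e-05 and 3.02e-05).

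The transport and junction list moved the same way, with 3 of 12 higher and 6 lower in choroid (median -0.64), 12 of 13 higher in retina (median 4.34) and 13 of 13 in brain (median 4.48). Of all genes in choroid, 21.1% were called higher and 20.9% lower, and 18% in retina and 21.2% in brain were called higher. In the difference of enrichment 11 of its 12 listed genes were lower in choroid than in retina and 11 of 12 lower than in brain, against 18% and 12.3% of all genes. The organic anion carrier gene Slco1a4 (-6.57 ± 0.44 and -5.36 ± 0.43, edgeR adjusted p = 1.7e-07 and 3.34e-07) was among them. The tight junction gene Cldn5 differed from this in the comparison with brain (-0.63, adjusted p = 0.405), having risen in choroid (4.34 ± 0.31, adjusted p = 6.93e-05). In input all 12 genes were higher in choroid than in retina (median 3.02) and 8 higher than in brain (median 1.47). In the pull-downs 1 was higher and 8 lower in choroid than in retina (median -1.19), and 1 and 10 against brain (median -2.42). Of all genes, 39.1% and 23.8% were lower in the choroid pull-down.

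Markers of other cells that can carry the tag or these genes moved with the fractions. In choroid the summed macrophage markers (7 of 8 listed) had 1421 to 2262 CPM in input and 12890 to 18890 CPM in positive libraries, most of it Lyz2. The leukocyte markers (8 of 8) had 210.1 to 403 CPM in input and 1413 to 1847 CPM after the pull-down. In brain the macrophage markers (8 of 8) were also higher in the pull-down, at 1391 to 1844 CPM against 113.4 to 128.9 CPM in input, beside 25.3 to 46.8 CPM of Plvap. Their part in the choroid enrichment was not tested.

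Markers of other cells known to express Cd24a were also summed in choroid. Of 8 granulocyte markers only Csf3r and Ltf were listed in choroid, summing to 20.7 to 32 CPM in the positive libraries, of 8 B cell markers only Cd22, at 31.5 to 57.6 CPM, against 560.3 to 830.7 CPM of Cd24a. Erythroid markers, 3 of 8 listed, ran from 211.2 to 1494 CPM in choroid input and from 82.8 to 802.4 CPM in positive libraries. They were highest in replicate 960 in both fractions, where Cd24a had its highest input and its lowest positive value. Rod markers were also highest there, and positive 960 was also the highest pull-down in markers of RPE (8178 CPM against 3754 and 4608) and macrophages (18890 against 12890 and 13090). The choroid plexus epithelium list was highest there too (5615 against 4223 and 3282, 9 of 12 listed). It shares Ttr and Otx2 with the RPE list, so its sum is not separate evidence of choroid plexus tissue. The part of all these markers in the Cd24a values was not tested. The log2 fold change of Cd24a was 3.35 without input 960 and 3.33 without positive 960 (edgeR adjusted p = 0.000434 and 0.000515). Markers of immature neurons apart from Cd24a summed to 39.1 to 72.7 CPM in choroid input and 141.8 to 171 CPM in positive libraries, from 3 of 10 listed. They did not move together. With Cd24a counted, 3 of 4 measured genes were called higher and 1 was not called, at a log2 fold change of -1.41.

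In brain, Plvap and Cd24a inputs were highest in replicate 960, whose choroid plexus epithelium markers were also highest. These markers (8 of 12 listed, with Ttr the most abundant) summed to 637.7, 627.9 and 1363 CPM in inputs 421, 953 and 960, beside Plvap at 29.2, 27.9 and 34.5 CPM and Cd24a at 13.5, 13.6 and 19.3 CPM. In the positive libraries the sums were 136.7, 151.5 and 330.1 CPM, while Plvap and Cd24a were lowest in 960. Ppap2a inputs stayed within 20.1 to 20.8 CPM. Ependymal markers (3 of 8 listed) had 24.1 to 35.4 CPM in brain input and 9.86 to 18.4 CPM in positive libraries. The part of choroid plexus tissue in these inputs was not tested.

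Over the 18 libraries, levels of the 3 genes followed each other. Pearson's r of log2 CPM was 0.982 between Plvap and Cd24a, 0.967 between Plvap and Ppap2a and 0.971 between Ppap2a and Cd24a. The points share tissues and pull-downs and fall into groups, with the choroid pull-down far from the rest, so these values describe the libraries and carry no test. With the 12 pan-endothelial genes the median r was lower, at 0.526 for Plvap, 0.67 for Ppap2a and 0.602 for Cd24a.

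Among 10186 genes averaging 10 CPM or more, the 5 closest to Plvap were Ggh, which encodes a lysosomal folate hydrolase (r = 0.983), Cd24a, Wdr92, Galns, which encodes a lysosomal sulfatase, and Ppap2a. Those closest to Ppap2a were the nucleoside transporter gene Slc29a1 (0.973), Cd24a, Creg1, Gne, which encodes an enzyme of sialic acid synthesis, and Oaz2. Those closest to Cd24a were Plvap, Arpc5, a subunit gene of an actin-nucleating complex (0.976), Rilpl2, Bambi, a TGF-beta pseudoreceptor gene, and Ppap2a. None of these neighbours outside the 3 genes reached their enrichment in choroid: Bambi had 2.04 (edgeR adjusted p = 0.000611), Wdr92 1.92 (adjusted p = 0.000259) and Ggh 1.22 (adjusted p = 0.00127). With Spearman's correlation in place of Pearson's, 1, 0 and 1 of the 5 neighbours of Plvap, Ppap2a and Cd24a recurred.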

How the data were processed

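The authors deposited 1 table per tissue with expected counts per gene, which were rounded here, and log2 normalized values, used only as a check on the raw columns. The tables hold genes with raw values of 50 or more, per the file headers, and 100% of listed genes met this in all libraries of at least 1 fraction (retina Cd24a through its inputs). The submitters' processing notes name DESeq and mm10, with no aligner or counter given in the sources used here.

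Counts were tested by the quasi-likelihood F test of edgeR 4.0.16 under R 4.3.3 (TMM, 0 genes removed by filterByExpr, Benjamini-Hochberg over all genes of a fit, call at an adjusted p under 0.05), after a trial on simulated counts. Enrichment was fitted per tissue (11718, 12369 and 12919 genes in choroid, retina and brain), differences over 18 libraries and each fraction over 9, both over 10505 genes. The design text calls the 3 samples of a group biological replicates. The test sets the difference between groups against the spread between these samples, with the estimate of spread shared in part over the genes of a fit. Exon lengths are from GENCODE M21. The 3 genes, the lists and the rule for named genes (per list up to 4 called genes of smallest adjusted p and 2 uncalled of highest level, and 5 most alike genes per gene) were chosen with earlier results of these data known. List genes outside the rule were named after their values were seen.

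Input and positive of the same number deviated together in choroid (correlations 0.624, 0.263 and 0.515), so the numbers pair libraries there. The fits have no replicate block, which was run as an alternative. In retina the same correlations were 0.0832, 0.0625 and 0.00697, and in brain 0.19, 0.0357 and 0.0912. Between tissues, inputs of choroid and brain with the same number had 0.47, 0.0655 and 0.586. With other numbers they had at most 0.44, 0.0282 and -0.559. All other pairs between tissues ran from -0.159 to 0.162. The main fit of inputs takes these libraries as independent. Alternatives were other scalings, DESeq2 1.42.0, a minimum of 10 CPM, the replicate block, 1 fit of all 18 libraries and leaving out libraries.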

Additional observations from a re-analysis of the deposited data

Results flagged for a closer look

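The enrichment of all 3 genes differed between tissues by a test of the difference itself, positive over input in choroid minus the same in retina or brain (edgeR, 18 libraries). For choroid minus retina the differences were 3.47 for Plvap, 2.74 for Ppap2a and 2.35 for Cd24a on the log2 scale. For choroid minus brain they were 3.65 for Plvap, 2.49 for Ppap2a and 2.93 for Cd24a. For each gene every choroid ratio of positive to input exceeded every retina and brain ratio, with no matching of numbers between tissues. The closest were those of Cd24a, at 2.55 in choroid 960 and 1.58 in retina 421. Only in choroid were the numbers seen to pair input with positive. The ratios come from the libraries of the test and are not separate support for it. Both comparisons use the same choroid libraries.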

How the results depend on the processing

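Of 36 results on the 3 genes, 29 kept their direction and their side of the threshold under every alternative run, among them all choroid enrichments, all differences of choroid from retina or brain and all input comparisons. The replicate block changed no call on the 3 genes, and with it 6635 genes in place of 4922 were called for choroid enrichment.

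Retina Ppap2a ran from 0.55 to 0.71 as each library was left out in turn and lost its call without any 1 input (0.64, 0.64 and 0.58 for 421, 953 and 960). Retina Cd24a ran from 0.66 to 1, was called only without positive 960, and was at 0.71, 0.89 and 1 without inputs 421, 953 and 960 and 0.66 and 0.98 without positive 421 and 953. Brain Cd24a ran from 0.27 to 0.61, called without input 960 (0.61). Brain Plvap ran from 0.09 to 0.5 and was not called. Without both fractions of brain 960, Plvap (0.59) and Cd24a (0.73) were called. The retina minus brain difference of Plvap ran from -0.15 to 0.38, below 0 in 7 of 18 cases. It was -0.36 without both fractions of choroid 421 and of brain 960, where that of Ppap2a was -0.52 and called. That of Cd24a was 0.04 there and not called. The difference of positive fractions of Plvap, retina minus brain, ran from -1.08 to -0.67, not called without brain positive 421. The causes were not tested.

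Genes called for enrichment moved by more than 1.5 times from 4922 to 3255 in choroid without input 953, from 3922 in retina to 2065, 1951, 1900 and 2364 without inputs 421, 953 and 960 and positive 953 and to 2119 with all 18 libraries in 1 fit, and from 5103 in brain to 9312 without input 960, 3085 and 3110 without positive 421 and 953 and 9618 without both fractions of 960. For retina minus brain they moved from 1397 to between 748 and 2383 with single libraries left out, and to 3441 without both fractions of choroid 421 and of brain 960. With library size as the only scaling, the all-gene median of choroid enrichment went from -0.03 to -0.26, and the share of calls that were higher from 50.2% to 34.5%, from 37.7% to 17.8% for choroid minus retina from 49.8% to 19.9% for choroid minus brain, from 62.6% to 52.4% for retina minus brain, from 49.3% to 35.7% for the positive fractions of choroid minus brain and from 41.1% to 52.8% for the inputs of retina minus brain. Without any 1 choroid library but input 953, or without brain input 960, that share was 30.1% to 33.9% for choroid minus brain and 33.3% to 35.2% for retina minus brain. In 1 fit of all 18 libraries it went from 53.8% to 38.2% for brain enrichment (median -0.07 to -0.22) and from 56.8% to 68.1% for retina. It was 67.4% and 64.8% in brain without positive 421 and 953, and 69.2% in retina without input 960. A minimum of 10 CPM left retina Cd24a untested. Fewer than 100 counts per library limit the precision of retina Cd24a.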
